A study of Mus musculus with 32 samples.

Results

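The genes described here are the protein-coding genes of 3 families of guidance cues and their receptors in the mouse: the Eph receptors with their ephrin ligands, the Slits with their Robo receptors, and the netrins with the netrin-G proteins, Dcc and the Unc5 receptors. They were chosen by gene symbol, with earlier results of these data known. The rule was met by 40 genes among 21900 protein-coding genes and 55573 genes listed in all. By role they are 9 EphA receptors, 5 EphB receptors, 5 ephrin-A and 3 ephrin-B ligands, 3 Slits, 4 Robos, 4 secreted netrins, 2 netrin-G proteins and 5 netrin receptors.

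RNA was sequenced from embryonic stem cells (ESC) of the mouse strain 129S5/SvEvBrd and from neural cells (NS) derived from them by 6 days in RHB-A medium (spelled RHA-B in the growth protocol), a serum-free medium for neural culture. In every line the gene Smarce1, whose product BAF57 belongs to the chromatin remodeller SWI/SNF (also called BAF), carried a modification labelled MD, and in the control lines it carried the R42A form of that modification, labelled MD(R42A). The groups are called MD and R42A here, and no unmodified line was analysed. ESC were grown on gelatin in Knockout DMEM with fetal bovine serum and leukaemia inhibitory factor, and came as 4 R42A clones (A04 and A10 in a first library run, A01 and A02 in a second) and 4 MD clones (09 and 30 in the first run, 45 and 47 in the second), each with 3 libraries. NS came from clones A04 and A10 (R42A) and 09 and 30 (MD), with 2 libraries per clone. The sample titles name no library run. The runs were inferred from the numbering of the libraries, and the ESC runs hold different clones. Each line is 1 clone, so clones were taken as the replicates and the libraries of a clone were summed. Nothing in the labels says that the libraries of a clone came from separate cultures.

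Eph receptors are receptor tyrosine kinases that bind ephrins held on the surface of a neighbouring cell, and contact usually makes the cell or growth cone pull back; ephrin-A proteins are attached by a lipid anchor and ephrin-B proteins span the membrane and can signal in their own cell. Slits are large secreted proteins that repel axons through Robo receptors, and in the neural tube they keep commissural axons from crossing the midline again. Netrins are secreted laminin-related proteins that attract axons through Dcc and repel them through Unc5 receptors. Several of these genes also act outside the nervous system, for example Ephb4, Efnb2 and Robo4 in blood vessels and Epha2 in epithelia and ESC.

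Library totals ranged from 38699951 to 96424439 estimated counts in ESC (24 libraries) and from 44426445 to 62803915 in NS (8 libraries). Levels are given as CPM, that is counts scaled to a common library size by the TMM method, and single libraries and clone sums were scaled separately, so a clone's value can lie slightly outside its libraries' values. A gene was called at an adjusted p under 0.05 in edgeR's quasi-likelihood test with Benjamini-Hochberg adjustment over all genes tested. The 8 NS libraries were taken as a library run of their own, so stage and library run cannot be told apart. Smarce1 itself was at 97.7 to 129 CPM in R42A ESC clones and at 115 to 125 CPM in MD ESC clones, and was not called there. In NS it was at 225 to 227 CPM in R42A clones and at 285 to 293 CPM in MD clones, and was called higher in MD (log2 0.34 ± 0.09 SE, adjusted p = 0.029). The ESC carried 8 of 8 pluripotency markers, whose summed level was 2869 to 4871 CPM in ESC clones and 42.4 to 54.3 CPM in NS clones. The summed level of 10 neural progenitor markers (among them Sox1, Pax6 and Nes) was 1368 to 1490 CPM in NS clones against 89.4 to 206 CPM in ESC clones. In NS, 14 neuron markers (among them Tubb3, Dcx and Elavl3) summed to 977 and 994 CPM in the R42A clones and to 2714 and 2783 CPM in the MD clones. Of these 14 markers, 13 were called higher in MD NS and none lower. Bulk RNA does not distinguish more cells of a type from more RNA per cell.

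Most of the 40 genes went from low levels in ESC to high levels in NS. The median of their mean levels was 2.29 CPM in R42A ESC and 3.05 CPM in MD ESC, against 21.0 CPM in R42A NS and 23.3 CPM in MD NS. Only 9 members reached 10 CPM in R42A ESC and 11 in MD ESC, against 25 in R42A NS and 29 in MD NS. From ESC to NS, 33 members were called higher and 4 lower in R42A cells (all genes: 37.9% higher and 40.4% lower), and 34 higher and 5 lower in MD cells (all genes: 40.3% higher and 41% lower). The median log2 change of the members was 3.88 in R42A and 3.51 in MD cells, against -0.06 and -0.02 over all genes tested. Those called lower in NS were Epha2, Robo4, Ntn5 and Efna1 in R42A cells and Epha2, Robo4, Ntn5, Epha1 and Unc5b in MD cells. These comparisons use the 4 clones present at both stages. Clone values of the stages did not overlap for 39 of 40 members in R42A cells (Unc5b overlapped) and for 39 of 40 in MD cells (Efna1 overlapped). Over all genes tested that share was 88.6% in R42A and 93.7% in MD cells. The filter on low counts looked at all groups of this fit together. Epha3, Epha5, Epha6, Ntng1, Robo2 and Unc5c did not meet it in R42A ESC, nor Epha6 and Ntng1 in MD ESC. Ntn5 did not meet it in NS, nor Robo4 in MD NS. These members entered through groups in which they were higher, so their stage calls and lack of overlap depend on those groups.

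**Figure D1:**
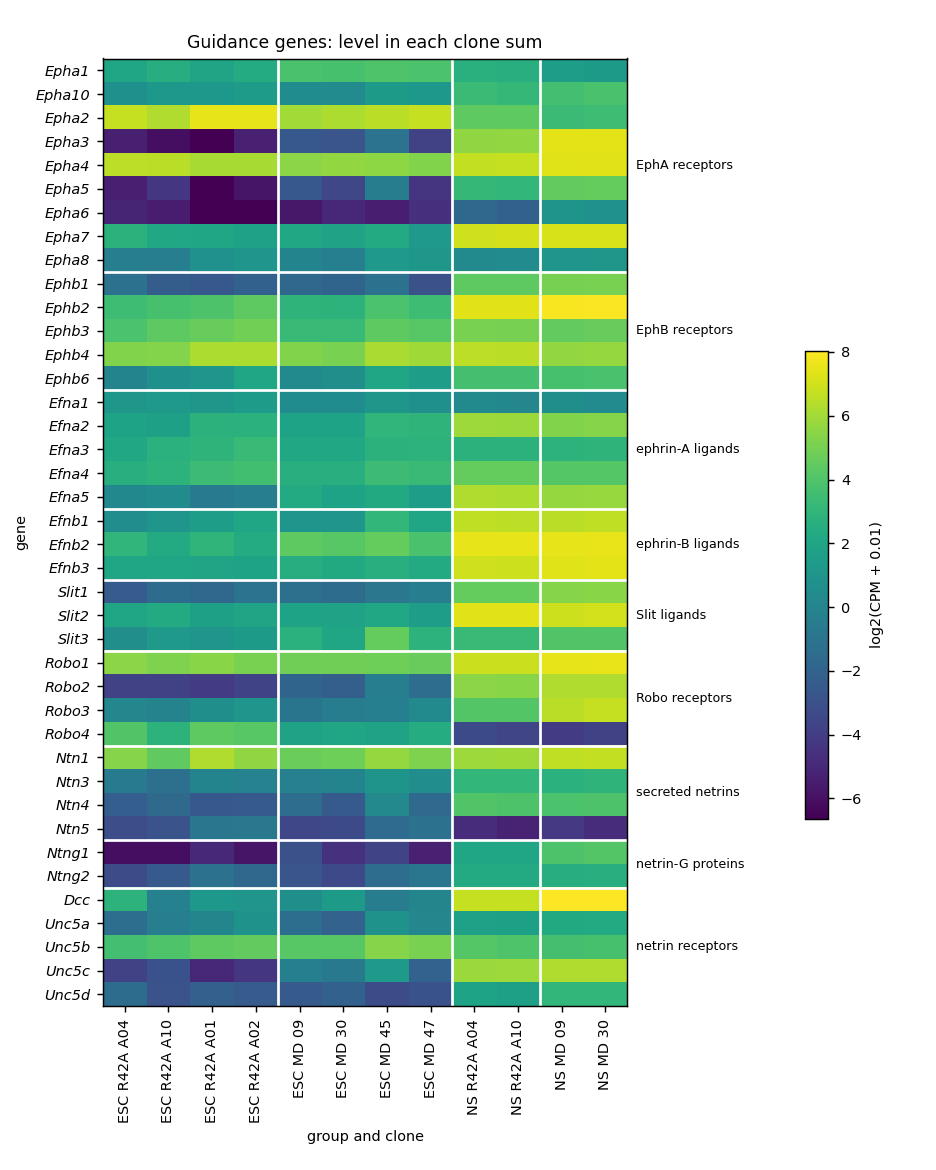
Level of the 40 guidance genes (rows, ordered by role) in the 12 clone sums (columns, by stage, genotype and clone), as log2(CPM + 0.01). Most rows are darker in the 8 ESC columns and brighter in the 4 NS columns, while Robo4, Epha2 and Ntn5 run the other way.

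MD and R42A cells differed at both stages, in sets of genes that changed in both directions. In ESC, 37 members passed the filter on low counts; 10 were higher and 8 lower in MD (all genes: 17.1% higher and 19.4% lower), with a median log2 change of -0.14 against -0.03 over all genes. Epha5, Epha6 and Ntng1 did not pass that filter in ESC. Epha3, counted among the 10 higher, passed it through the MD clones alone. It had 6 counts over the 12 R42A libraries and 132 over the 12 MD libraries. Robo2 and Unc5c, also counted there, had 44 and 49 counts in R42A and 246 and 658 in MD. The filter asked for enough counts in as many clones as a genotype has. For Robo2 and Unc5c all MD clones met it and not all R42A clones did. Their ESC calls and lack of overlap thus also depend on the group in which they were high. Within the first library run alone 7 members were called (all genes: 7.84%) and within the second alone 12 (all genes: 23.2%). Beside the ESC differences, 6 of the 8 pluripotency markers were called lower and 1 higher in MD, with none at 0, and their sum was 3490 to 4871 CPM in R42A and 2869 to 3668 CPM in MD clones; their part in these results was not tested. In NS all 40 were tested; 13 were higher and 8 lower in MD (all genes: 17.4% higher and 16.3% lower), with a median of 0.43 against -0.0020 over all genes. The values did not overlap between genotypes for 12 of 37 members over the 8 ESC clones (all genes: 21%). They did not overlap for 31 of 40 members over the 8 NS libraries (all genes: 51.1%), which come from 2 clones a genotype, so the counts of the stages are not comparable. The change of genotype effect between stages, tested as MD less R42A in NS minus MD less R42A in ESC, was called above 0 for 7 members and below 0 for 10 (all genes: 11.9% above and 11.1% below). The neuron markers described above, none of which was at 0 in NS, moved with genotype beside every NS difference below, and their part in these results was not tested. Every one of these NS comparisons rests on 2 clones a genotype. Without clone 09 only 8 members were called between the NS genotypes (Epha3, Epha4, Epha6, Ephb4, Efnb3, Ntng1, Robo2 and Robo3), and without clone 30 the same ones except Efnb3, that is 7 (all genes: 6.52% without 09 and 6.21% without 30).

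**Figure D2:**
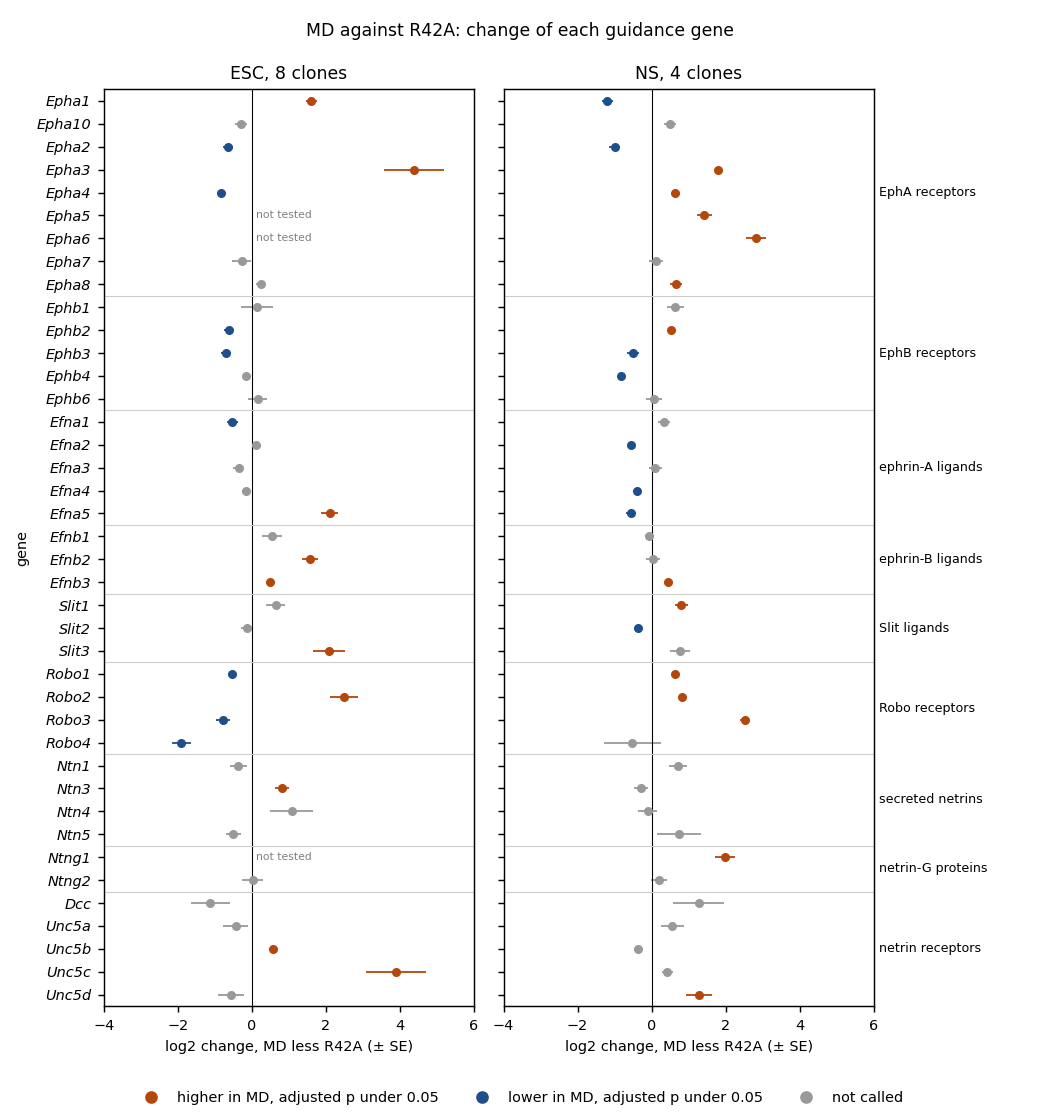
Log2 change of each guidance gene between MD and R42A in ESC (left, 8 clones) and NS (right, 4 clones); points are estimates, bars are standard errors, and colours mark calls at an adjusted p under 0.05. Epha1, Efna5, Epha4, Ephb2, Robo1 and Robo3 lie on opposite sides of 0 in the left and right panels.

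EphA receptors. Epha3, Epha5 and Epha6, which were nearly silent in ESC, were higher in MD than in R42A neural cells, and Epha1 and Epha2, which ESC expressed, were lower. Beside these falls, 7 surface ectoderm and epithelium markers summed to 198 and 173 CPM in R42A NS clones and to 104 and 98.8 CPM in MD NS clones, with 3 called lower and none higher; Krt5, Krt14 and Trp63 were under 0.1 CPM in both. The 8 endoderm markers summed to 216 and 209 CPM in R42A and to 97.9 and 89.9 CPM in MD NS clones, with 3 called lower and none higher and none at 0. The part of these markers in the results was not tested. Of 9 EphA genes, 5 were called higher and 2 lower in MD NS, and 2 higher and 2 lower in MD ESC. Epha3, a receptor for ephrin-A ligands on axons, lies at chr16:63543534-63864175 on the minus strand (mm10). In R42A NS its libraries were at 50.8 and 49.8 CPM (clone A04) and 55.2 and 49.1 CPM (clone A10). In MD NS they were at 184 and 181 CPM (clone 09) and 189 and 160 CPM (clone 30). Every MD library was above every R42A library, a 3.47-fold difference (log2 1.79 ± 0.07 SE, adjusted p = 5.6e-05). In R42A ESC the gene had 6 counts over 12 libraries, with clone values of 0.014 (A04), 0.004 (A10), 0 (A01) and 0.016 CPM (A02). In MD ESC it was at 0.153 (09), 0.138 (30), 0.466 (45) and 0.061 CPM (47), all above the R42A clones (log2 4.38 ± 0.82 SE, adjusted p = 0.0035; 3.61 without clone 45). Both groups of ESC were therefore far below the NS level. No R42A ESC clone reached the minimum count of 10, so the gene passed the filter on low counts through the MD clones alone. Its ESC call and lack of overlap thus depend on the group in which it was high. From ESC to NS Epha3 rose in R42A cells from 4 counts to 11754 counts over the libraries of the shared clones. Scaled to the library totals this is a ratio of 5937, with an exact 95% counting interval of 2318 to 21792.

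Epha1, an epithelial member of the family, moved the opposite way at the 2 stages; it lies at chr6:42358487-42373268 on the minus strand. In ESC it was at 4.17 (A04), 5.61 (A10), 3.77 (A01) and 5.29 CPM (A02) in R42A. In MD ESC it was at 13.9 (09), 13.6 (30), 15.6 (45) and 14.6 CPM (47), without overlap and 3.04-fold higher (log2 1.61 ± 0.14 SE, adjusted p = 0.00010). In NS the order was turned round. R42A NS libraries were at 6.92, 6.35, 5.67 and 6.59 CPM and MD NS libraries at 3.10, 2.79, 2.69 and 2.62 CPM (log2 -1.20 ± 0.16 SE, adjusted p = 0.0016). The NS call of Epha1 was lost without clone 09 or without clone 30. In R42A cells the stage change was not called (log2 0.32 ± 0.15 SE, adjusted p = 0.092), and in MD cells Epha1 fell by 2.35 on the log2 scale. The difference between stages in the genotype effect was -2.67 ± 0.22 SE (adjusted p = 0.00065, and 0.066 at the highest over its alternatives, when clone 09 or 30 was left out). A share of 6.01% of its exon bases overlaps Zyx on the other strand, and no source used here says whether counting used strand.

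The stretches before the starts of Epha3 and Epha1 are shown because both genes were called at both stages and Epha1 changed sides. Both are RefSeq windows of 250 bases on build GRCm38.p6, read 5′ to 3′ on the minus strand, with E-boxes of the letters CAGCTG or CAGATG (either strand) in capitals. E-boxes are the sites of basic helix-loop-helix factors, among them those of neuronal differentiation.
Epha3, chr16:63864176-63864425: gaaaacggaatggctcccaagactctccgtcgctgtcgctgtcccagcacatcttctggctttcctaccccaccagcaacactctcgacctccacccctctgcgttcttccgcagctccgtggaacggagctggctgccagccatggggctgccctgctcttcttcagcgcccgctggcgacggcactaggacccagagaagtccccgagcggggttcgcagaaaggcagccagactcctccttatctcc
Epha1, chr6:42373269-42373518: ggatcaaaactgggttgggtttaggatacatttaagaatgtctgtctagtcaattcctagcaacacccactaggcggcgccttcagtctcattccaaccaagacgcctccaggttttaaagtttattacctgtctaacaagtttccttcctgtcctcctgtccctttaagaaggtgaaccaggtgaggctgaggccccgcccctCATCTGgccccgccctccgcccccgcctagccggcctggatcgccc
The Epha3 window held 16 CpG pairs (76.5th percentile of 32841 windows of all genes) and neither E-box. The Epha1 window held 9 CpG pairs (62.2nd percentile) and 1 CAGATG, read as CATCTG on this strand, beginning 46 bases before the start. Windows were found for 35 of the 40 members (40 windows). CAGCTG was in 6 of the 40 member windows (15%) against 13% of all windows, and CAGATG in 4 (10%) against 14.4%. The median number of CpG pairs was 16.5 in the members' windows and 6 in all windows.

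Epha6 and Epha5 followed Epha3 in NS. Epha6 was at 0.34, 0.26, 0.22 and 0.24 CPM in the R42A NS libraries and at 1.96, 2.03, 1.92 and 1.57 CPM in the MD NS libraries, a 7.09-fold difference without overlap (log2 2.83 ± 0.27 SE, adjusted p = 0.00046). It stayed a low gene, and in ESC it had 7 counts over the 12 R42A libraries and 12 counts over the 12 MD libraries. Epha5 was at 10.0, 8.10, 9.38 and 8.17 CPM in R42A NS and at 24.1, 23.4, 25.8 and 23.0 CPM in MD NS (log2 1.43 ± 0.21 SE, adjusted p = 0.0024; 0.057 at the highest over its alternatives, when clone 09 or 30 was left out). In ESC Epha5 had clone values of 0 to 0.039 CPM in R42A and 0.038 to 0.703 CPM in MD, the highest in clone 45. From ESC to NS, Epha5 rose 309-fold in R42A cells and 197-fold in MD cells in the fit. The ratios of its summed counts, scaled to the library totals, were 343 (exact 95% counting interval 196 to 665) and 224 (168 to 306), and these intervals overlap.

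Epha4, which binds both ephrin classes and is known for its part in spinal motor and cortical projection axons, was lower in MD ESC and higher in MD NS. ESC clones were at 96.7 (A04), 89.4 (A10), 68.3 (A01) and 68.3 CPM (A02) in R42A and at 45.1 (09), 49.6 (30), 46.8 (45) and 37.9 CPM (47) in MD, without overlap (log2 -0.84 ± 0.09 SE, adjusted p = 0.00026). NS libraries were at 104, 108, 115 and 109 CPM in R42A and at 164, 172, 186 and 160 CPM in MD (log2 0.64 ± 0.07 SE, adjusted p = 0.00058). The difference between stages was 1.63 ± 0.09 SE (adjusted p = 0.00026), and it was called under all 14 alternatives run. Epha4 rose 3.48-fold from ESC to NS in MD cells. In R42A cells its stage change of 0.17 ± 0.06 SE (adjusted p = 0.043) was lost under 9 of 12 alternatives and was -0.02 with upper-quartile scaling, under which the median of all genes moved by -0.20.

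Epha2, the EphA receptor with the highest level in ESC, fell from ESC to NS in both genotypes and was lower in MD at both stages. It was at 107 (A04), 79.0 (A10), 177 (A01) and 182 CPM (A02) in R42A ESC and at 62.7 (09), 75.3 (30), 89.4 (45) and 108 CPM (47) in MD ESC. These ranges overlap. Within each genotype the clones of the first library run (A04, A10; 09, 30) lay below those of the second, and within each run both MD clones were below both R42A clones (log2 -0.65 ± 0.13 SE, adjusted p = 0.0042; 0.20 at the highest over its alternatives, without the run term or in the first run alone). NS libraries were at 20.6, 23.3, 21.9 and 21.2 CPM in R42A and at 10.4, 11.1, 11.7 and 10.8 CPM in MD (log2 -1.0 ± 0.15 SE, adjusted p = 0.0025). The NS call of Epha2 was lost without clone 09 or without clone 30. The fall from ESC to NS was 4.44-fold in R42A and 6.52-fold in MD cells. The difference between these falls was not called (log2 -0.56 ± 0.20 SE, adjusted p = 0.094).

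The remaining EphA genes moved mainly with stage. Epha7, a receptor for ephrin-A5 in the cortex, averaged 4.72 ± 1.6 (SD, n = 4 clones) and 3.82 ± 1.1 CPM in R42A and MD ESC. In NS it averaged 130 ± 5.0 and 142 ± 1.4 CPM (SD, n = 2 clones), and it was called between genotypes at neither stage. Epha10, which lacks kinase activity, rose 4.75-fold in R42A and 9.72-fold in MD cells, to means of 9.35 and 13.3 CPM, and the difference between these rises was called (log2 1.03 ± 0.24 SE, adjusted p = 0.022; 0.058 with the clone as a block). Epha8 averaged 1.302 to 2.09 CPM in the 4 groups and was called higher in MD NS (log2 0.67 ± 0.16 SE, adjusted p = 0.019; 0.16 at the highest over its alternatives, when clone 09 or 30 was left out).

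EphB receptors. Ephb2, like Epha4, was lower in MD ESC and higher in MD NS, whereas Ephb3 was lower in MD at both stages and Ephb4 was lower in MD NS. All 5 EphB genes rose from ESC to NS in both genotypes. Ephb2, which binds ephrin-B ligands and is known from synapses and commissural axons, was at 11.1 (A04), 13.6 (A10), 15.1 (A01) and 20.7 CPM (A02) in R42A ESC. It was at 7.36 (09), 7.26 (30), 14.7 (45) and 11.2 CPM (47) in MD ESC, overlapping the R42A range across runs but not within a run (log2 -0.62 ± 0.14 SE, adjusted p = 0.0095; 0.22 at the highest over its alternatives, in single runs or without the run term). In NS it was at 169, 176, 170 and 169 CPM in R42A and at 245, 240, 254 and 255 CPM in MD (log2 0.52 ± 0.09 SE, adjusted p = 0.0042). Its rise was 13.3-fold in R42A and 32.6-fold in MD cells, and the difference of 1.29 ± 0.13 SE was called (adjusted p = 0.0011). The NS call of Ephb2 and the call of this difference were lost without clone 09 or without clone 30.

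Ephb3, known from the gut epithelium as well as from axons of the corpus callosum, was at 14.6 (A04), 20.7 (A10), 25.05 (A01) and 30.03 CPM (A02) in R42A ESC and at 9.35 (09), 9.74 (30), 21.0 (45) and 18.3 CPM (47) in MD ESC (log2 -0.69 ± 0.14 SE, adjusted p = 0.0045; 0.24 at the highest over its alternatives, without the run term or in the first run alone). Here too the runs differed, and MD lay below R42A within each. In NS it averaged 32.9 ± 1.2 and 23.4 ± 1.4 CPM in R42A and MD (SD, n = 2 clones; adjusted p = 0.040, and 0.30 at the highest over its alternatives, when clone 09 or 30 was left out). The NS call of Ephb3 was also lost without the filter on low counts and with each chromosome scaled separately. Ephb4, the ephrin-B2 receptor of veins, averaged 56.8 ± 21 and 51.1 ± 18 CPM in R42A and MD ESC (SD, n = 4 clones) and was not called there. In NS its libraries were at 91.8, 101, 91.3 and 98.1 CPM in R42A and at 52.3, 53.4, 53.2 and 57.9 CPM in MD, without overlap (log2 -0.84 ± 0.07 SE, adjusted p = 0.00024). Beside it, 8 endothelium markers summed to 66.5 and 74.2 CPM in R42A NS clones and to 32.4 and 33.2 CPM in MD NS clones, with 1 called higher and 3 lower of 7 tested, and Emcn was under 0.1 CPM in both; their part in the result was not tested. Ephb1 rose 67.1-fold in R42A and 120-fold in MD cells, to means of 21.1 and 33.3 CPM, and its NS libraries did not overlap between genotypes, but it was not called (log2 0.65 ± 0.23 SE, adjusted p = 0.071). Ephb6, whose kinase is inactive, rose to 13.1 and 13.8 CPM in NS.

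Ephrin-A ligands. Efna5 was higher in MD ESC and lower in MD NS, and Efna2 and Efna4 were lower in MD NS. Of the 5 genes, 3 were lower and none higher in MD NS, and 1 was higher (Efna5) and 1 lower (Efna1) in MD ESC. Efna5, a repellent that shapes the map of retinal axons, lies at chr17:62604184-62881317 on the minus strand. It was at 1.15 (A04), 1.36 (A10), 0.635 (A01) and 0.763 CPM (A02) in R42A ESC and at 5.003 (09), 3.69 (30), 4.76 (45) and 2.89 CPM (47) in MD ESC, without overlap and 4.30-fold higher (log2 2.10 ± 0.23 SE, adjusted p = 0.00026). In NS its libraries were at 81.4, 82.7, 80.7 and 74.2 CPM in R42A and at 53.9, 53.2, 58.2 and 54.0 CPM in MD (log2 -0.55 ± 0.14 SE, adjusted p = 0.021; 0.094 at the highest over its alternatives, and lost when any 1 of the 4 clones was left out). Its rise from ESC to NS was 61.0-fold in R42A and 12.1-fold in MD cells. That difference was -2.33 ± 0.21 SE (adjusted p = 0.00083).

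Efna2 rose 16.6-fold in R42A and 10.8-fold in MD cells. In NS it was at 60.4, 63.7, 58.6 and 57.8 CPM in R42A and at 40.1, 38.7, 40.1 and 46.3 CPM in MD, without overlap (log2 -0.57 ± 0.08 SE, adjusted p = 0.0021). Efna2 lost its NS call without clone 09 or without clone 30. In ESC it averaged 5.17 ± 2.0 and 5.69 ± 2.4 CPM (SD, n = 4 clones) and was not called. Efna4 averaged 23.6 ± 0.098 CPM in R42A NS and 18.1 ± 0.010 CPM in MD NS (SD, n = 2 clones; log2 -0.40 ± 0.10 SE, adjusted p = 0.018, and 0.20 at the highest over its alternatives). Efna1 was called lower in NS than in ESC in R42A cells (log2 -1.0 ± 0.16 SE, adjusted p = 0.00097) and was the only ephrin called so. It was at 2.17 (A04), 2.44 (A10), 2.17 (A01) and 2.63 CPM (A02) in R42A ESC and at 1.42 (09), 1.42 (30), 2.13 (45) and 1.64 CPM (47) in MD ESC. NS clones were at 1.24 and 1.08 CPM in R42A and at 1.59 and 1.35 CPM in MD. Its ESC difference (log2 -0.53 ± 0.15 SE, adjusted p = 0.025) was lost under 8 of 20 alternatives, among them leaving out 09, 30, 47, A02 or A04. The difference of its stage changes was called (log2 1.05 ± 0.23 SE, adjusted p = 0.019; 0.057 with the clone as a block). Efna3, which lies 10.4 kb from Efna4 and 32.8 kb from Efna1 on chromosome 3, averaged 5.59 to 7.40 CPM in the 4 groups and was called in MD cells alone, for a 1.76-fold rise with stage that was lost without clone 09 or without clone 30 (adjusted p of 0.091 at the highest over its alternatives).

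Ephrin-B ligands. Efnb2 and Efnb3 were higher in MD ESC and Efnb3 was higher in MD NS. All 3 ephrin-B genes rose from ESC to NS in both genotypes. Per kb of exon their summed level was 2.52 to 3.16 CPM in R42A ESC clones and 4.72 to 7.87 in MD ESC clones, and 91.97 and 94.2 in R42A NS and 104 and 110 in MD NS clones. Efnb2, the arterial ephrin that also marks neural progenitors, was 2.97-fold higher in MD ESC. It averaged 6.51 ± 1.7 CPM in R42A and 19.4 ± 4.3 CPM in MD ESC (SD, n = 4 clones), with clone ranges of 4.94 to 8.07 and 13.95 to 24.0 (log2 1.57 ± 0.22 SE, adjusted p = 0.00093). In NS the genotypes overlapped, at means of 180 ± 3.0 and 186 ± 5.8 CPM (SD, n = 2 clones; log2 0.03 ± 0.19 SE, adjusted p = 0.93). The difference between stages was -1.56 ± 0.28 SE (adjusted p = 0.0085). Efnb2 lies on chromosome 8, whose genes were lower in MD as a whole, and with each chromosome scaled separately its ESC change was 2.06.

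Efnb3, a midline repellent of the spinal cord, averaged 3.82 ± 0.082 CPM in R42A and 5.39 ± 0.64 CPM in MD ESC (SD, n = 4 clones) and 122 ± 2.1 and 167 ± 6.9 CPM in NS (SD, n = 2 clones). It was called higher in MD at both stages (ESC log2 0.49 ± 0.12 SE, adjusted p = 0.012; NS 0.43 ± 0.08 SE, adjusted p = 0.0069). It lies on chromosome 11, whose genes were higher in MD as a whole. With each chromosome scaled separately neither difference remained, at log2 0.03 in ESC (adjusted p = 0.88) and -0.01 in NS (adjusted p = 0.96). Efnb1, on the X chromosome, rose 56.2-fold in R42A and 45.7-fold in MD cells, to means of 97.7 and 94.5 CPM, and was called between genotypes at neither stage.

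Slits. Slit3 was higher in MD ESC, Slit1 was higher and Slit2 lower in MD NS, and all 3 rose with stage. Slit3 was at 1.53 (A04), 2.32 (A10), 2.04 (A01) and 2.55 CPM (A02) in R42A ESC and at 6.63 (09), 3.91 (30), 23.5 (45) and 7.10 CPM (47) in MD ESC. All MD clones were above all R42A clones, and clone 45 stood far above the other MD clones. The difference was 4.26-fold (log2 2.09 ± 0.43 SE, adjusted p = 0.0058), and 1.51 on the log2 scale without clone 45 (adjusted p = 0.0023). It was not called in the first or the second library run alone, or without the filter on low counts (adjusted p = 0.056). Slit3 lies on chromosome 11, whose genes were higher in MD as a whole. Its call was kept with each chromosome scaled separately. Beside it, 8 mesenchyme and smooth muscle markers (among them Acta2 and Tagln) summed to 7.02 to 23.5 CPM in R42A ESC clones and to 64.5 to 113 CPM in MD ESC clones, with 6 of 7 tested called higher in MD; their part in the result was not tested. In NS that sum was 223 and 234 CPM in R42A and 132 and 134 CPM in MD clones. The single markers did not follow the sum there, as 4 of the 8 were called higher in MD NS and 3 lower (median log2 0.62).

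Slit2 was at 163 ± 0.76 CPM in R42A NS and 126 ± 5.3 CPM in MD NS (SD, n = 2 clones; log2 -0.38 ± 0.09 SE, adjusted p = 0.020, and 0.23 at the highest over its alternatives, when clone 09 or 30 was left out). It rose 35.9-fold in R42A and 35.5-fold in MD cells, and did not pass the test in ESC (log2 -0.14 ± 0.17 SE, adjusted p = 0.57). Slit1 rose 87.5-fold and 106-fold, to 23.6 ± 0.098 and 41.6 ± 0.82 CPM (log2 0.80 ± 0.17 SE in NS, adjusted p = 0.011, and 0.17 at the highest over its alternatives). Of 5 floor plate markers (Shh, Foxa2, Foxa1, Foxj1 and Spon1), the midline cells known to make Slits and netrin, the sum was 35.4 and 38.4 CPM in R42A NS clones and 36.3 and 37.3 CPM in MD NS clones.

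Robo receptors. Robo3 gave the largest called difference between stages in the genotype effect. It was lower in MD ESC and 5.72-fold higher in MD NS, while its neighbour Robo4 fell almost to 0 in NS in both genotypes. Robo3, which lets commissural axons cross the midline, lies at chr9:37415669-37433246 on the minus strand (ENSMUSG00000032128.15). In ESC it was at 1.09 (A04), 0.925 (A10), 1.57 (A01) and 1.97 CPM (A02) in R42A and at 0.507 (09), 0.694 (30), 0.793 (45) and 1.25 CPM (47) in MD. The ranges overlap across runs, and within each run both MD clones were below both R42A clones (log2 -0.78 ± 0.19 SE, adjusted p = 0.013, and 0.16 at the highest over its alternatives, in single runs or without the run term). In NS its libraries were at 17.6, 18.6, 18.5 and 16.4 CPM in R42A and at 92.4, 100.03, 108 and 113 CPM in MD, without overlap (log2 2.52 ± 0.13 SE, adjusted p = 8.9e-05). The rise from ESC to NS was 17.0-fold in R42A and 165-fold in MD cells. The difference between these rises was 3.28 ± 0.20 SE (adjusted p = 0.00029) and was called under all 14 alternatives run.

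Robo4, the endothelial member of the family, lies at chr9:37401897-37415115 on the plus strand (ENSMUSG00000032125.20), so that it and Robo3 face each other with their ends 553 bases apart. In ESC it was at 16.3 (A04), 7.30 (A10), 21.2 (A01) and 18.9 CPM (A02) in R42A and at 3.43 (09), 4.13 (30), 3.51 (45) and 5.43 CPM (47) in MD, without overlap and 3.77-fold lower (log2 -1.91 ± 0.26 SE, adjusted p = 0.00074). Clone A10 was the lowest of the R42A clones, and in the first run alone, where it is 1 of 2, the difference was not called (adjusted p = 0.078). In NS the gene had 19 counts over 4 R42A libraries and 14 counts over 4 MD libraries, at 0.056 to 0.080 CPM on average. From ESC to NS it fell by 7.2 on the log2 scale in R42A and by 6.06 in MD cells. Beside it in ESC, the 8 endothelium markers summed to 77.6 to 132 CPM in R42A and to 119 to 184 CPM in MD clones, with 4 of 7 tested called higher and none lower in MD, and Emcn at 0 in R42A; their part in the result was not tested.

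The stretches before Robo3 and Robo4 are shown because these neighbours moved in opposite directions with stage. They are the RefSeq windows on build GRCm38.p6 without the bases that lie inside the gene in GENCODE M21, on each gene's own strand, with the same E-boxes in capitals.
Robo3, chr9:37433247-37433425: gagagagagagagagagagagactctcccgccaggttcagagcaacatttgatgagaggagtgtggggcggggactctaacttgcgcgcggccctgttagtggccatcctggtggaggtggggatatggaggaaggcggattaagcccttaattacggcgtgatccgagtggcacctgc
Robo4, chr9:37401722-37401896: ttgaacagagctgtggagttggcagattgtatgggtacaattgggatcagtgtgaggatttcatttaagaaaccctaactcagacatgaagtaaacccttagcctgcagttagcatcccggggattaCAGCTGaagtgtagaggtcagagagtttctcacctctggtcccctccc
Robo3 held 9 CpG pairs in 179 bases and neither E-box. Robo4 held 1 CpG pair in 175 bases and 1 CAGCTG, which begins 48 bases before the end of the stretch. Over the full windows of 250 bases the counts were 12 (68.5th percentile of all windows) and 2 (29.0th percentile).

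Robo1 and Robo2, the main Slit receptors of axons, lie 846 kb apart on chromosome 16. Robo2 was at 0.065 (A04), 0.061 (A10), 0.049 (A01) and 0.071 CPM (A02) in R42A ESC and at 0.253 (09), 0.204 (30), 0.751 (45) and 0.365 CPM (47) in MD ESC, a low level but without overlap (log2 2.49 ± 0.38 SE, adjusted p = 0.0013). It passed the filter on low counts through the MD clones, so this ESC call and lack of overlap depend on the group in which it was high. In the fit of both stages Robo2 did not meet the filter in R42A ESC either. In NS its libraries were at 47.1, 46.4, 46.1 and 43.5 CPM in R42A and at 80.5, 83.0, 86.3 and 76.6 CPM in MD (log2 0.83 ± 0.07 SE, adjusted p = 0.00035). From 28 ESC counts in R42A cells of the shared clones it rose 690-fold, and 341-fold in MD cells, and the difference was called (log2 -1.02 ± 0.18 SE, adjusted p = 0.0091; 0.15 at the highest over its alternatives, and lost with limma voom and without clone 09 or 30). Robo1, already present in ESC, averaged 39.7 ± 5.3 CPM in R42A and 27.5 ± 2.3 CPM in MD ESC (SD, n = 4 clones) and 116 ± 2.0 and 183 ± 2.8 CPM in NS (SD, n = 2 clones). It was called lower in MD ESC (log2 -0.54 ± 0.10 SE, adjusted p = 0.0032), higher in MD NS (log2 0.65 ± 0.09 SE, adjusted p = 0.0019), and for the difference between them (log2 1.15 ± 0.13 SE, adjusted p = 0.0016). The ESC call of Robo1 was lost in the first library run alone (adjusted p = 0.076). Its NS call and that of the difference were lost without clone 09 or without clone 30. Summed per kb of exon, the 4 Robos were at 3.74 to 6.85 CPM in R42A and 2.48 to 2.697 CPM in MD ESC clones, and at 11.9 and 12.3 CPM in R42A and 29.1 and 31.3 CPM in MD NS clones.

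**Figure D3:**
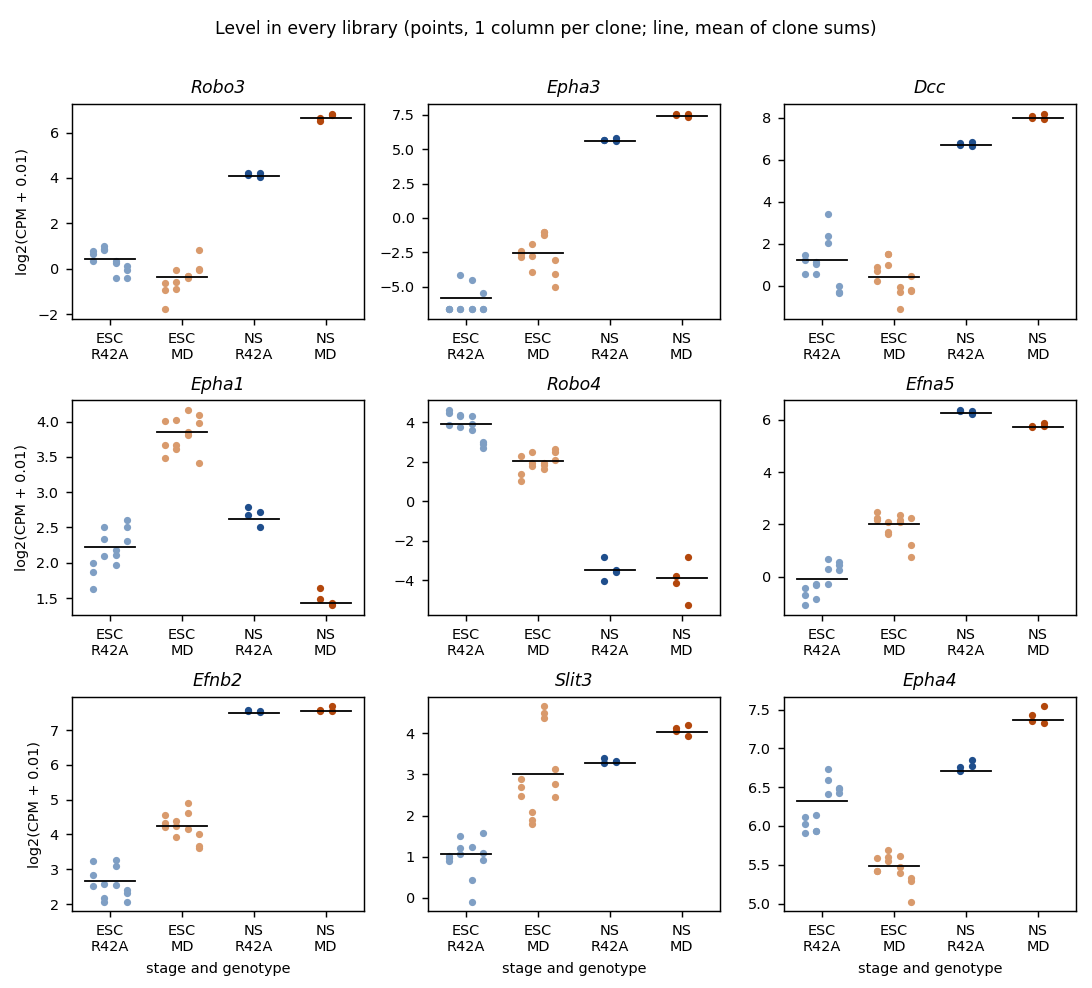
Level of 9 guidance genes in every library as log2(CPM + 0.01), by stage and genotype; each column of points is 1 clone (in the order A01, A02, A04, A10 or 09, 30, 45, 47) and the black line is the mean over clone sums. Robo3, Epha3 and Dcc are highest in MD NS, Epha1 changes order between the stages, Robo4 is near the bottom in NS, and clone 45 stands above the other MD ESC clones for Slit3.

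Netrins and netrin-G proteins. None of the 4 secreted netrins was called between the NS genotypes, Ntn3 was called higher in MD ESC, and Ntng1 was higher in MD NS. Ntn1, the chemoattractant of the floor plate and ventricular zone, averaged 47.4 ± 24 CPM in R42A and 35.7 ± 12 CPM in MD ESC (SD, n = 4 clones). In NS its libraries did not overlap, at 60.1 to 66.0 CPM in R42A and 99.2 to 109 CPM in MD, but it missed the threshold (log2 0.72 ± 0.24 SE, adjusted p = 0.056). That fit also holds the ESC clones, where A04 was at 40.5 and A10 at 21.9 CPM, and their part in this was not tested. Ntn1 rose 1.91-fold in R42A and 3.64-fold in MD cells. It lies on chromosome 11, whose genes were higher in MD as a whole. Its ESC difference was not called (log2 -0.37 ± 0.23 SE, adjusted p = 0.24). With each chromosome scaled separately Ntn1 was called lower in MD ESC (log2 -0.84, adjusted p = 0.030). Ntn3 averaged 0.727 ± 0.26 CPM in R42A and 1.28 ± 0.48 CPM in MD ESC (SD, n = 4 clones; log2 0.80 ± 0.18 SE, adjusted p = 0.0089, and 0.17 at the highest over its alternatives, without the run term or in the first run alone). It rose to 8.44 and 7.01 CPM in NS. Ntn4, a netrin of basement membranes, rose 59.5-fold in R42A and 55.0-fold in MD cells, to 15.9 and 15.0 CPM. Ntn5 was low throughout, at most 0.580 CPM in an ESC clone, and had 5 and 9 counts over the R42A and MD NS libraries. Its fall with stage in MD cells (log2 -1.18 ± 0.44 SE, adjusted p = 0.040) was lost under 7 of 10 alternatives, among them leaving out any 1 clone, and 23.4% of its exon bases overlap Sec1 on the other strand.

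Ntng1, a lipid-anchored relative of netrins that binds Lrrc4c at synapses, was at 4.14, 4.05, 4.55 and 4.12 CPM in the R42A NS libraries. In the MD NS libraries it was at 15.3, 17.0, 18.7 and 15.9 CPM, without overlap and 3.95-fold higher (log2 1.98 ± 0.26 SE, adjusted p = 0.0015). In ESC it had 6 counts over the R42A libraries and 42 over the MD libraries. The R42A clones present at both stages had 2 ESC counts and 967 NS counts, which scaled to the library totals is a ratio of 977 with an exact 95% counting interval of 270 to 8077. For MD the counts were 30 and 4036, a scaled ratio of 239 (167 to 354). Ntng2 rose 37.5-fold in R42A and 51.0-fold in MD cells, to 4.99 and 5.76 CPM, and was called between genotypes at neither stage; 14% of its exon bases overlap the transcript 6530402F18Rik on the same strand.

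Netrin receptors. Unc5c and Unc5b were higher in MD ESC, Unc5d was higher in MD NS, and Dcc was 2.41-fold higher in MD NS libraries without passing the test. Dcc attracts axons to netrin. It is a member by its symbol, but its values by library go beyond the rule for such values and were picked for display after they were seen. In NS it was at 106, 114, 116 and 102 CPM in R42A and at 256, 269, 292 and 244 CPM in MD, without overlap (log2 1.27 ± 0.69 SE, adjusted p = 0.20). In ESC its clones spread widely within R42A, at 7.18 (A04), 0.864 (A10), 2.28 (A01) and 2.01 CPM (A02), against 0.724 to 2.54 CPM in MD. That spread enters the 4-group fit, and its part in the result was not tested. In a fit of the 4 NS clones alone Dcc was called (log2 1.28, adjusted p = 5.1e-25). That fit called 33 members and 67.3% of all genes tested in it. The 3 libraries of ESC clone A04 were at 4.14, 5.23 and 10.7 CPM.

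Unc5c, a repulsive netrin receptor, lies at chr3:141465216-141834924 on the plus strand. It was at 0.061 (A04), 0.122 (A10), 0.021 (A01) and 0.040 CPM (A02) in R42A ESC and at 0.784 (09), 0.595 (30), 2.47 (45) and 0.236 CPM (47) in MD ESC, without overlap (log2 3.89 ± 0.81 SE, adjusted p = 0.0058). It was 2.90 without clone 45 (adjusted p = 0.00066), and it was not called in the second run alone (adjusted p = 0.12) or without the filter on low counts (adjusted p = 0.054). Unc5c passed that filter through the MD clones, so its ESC call and lack of overlap depend on the group in which it was high. In NS it was at 57.6 and 58.0 CPM in the R42A clones and at 77.9 and 78.8 CPM in the MD clones (log2 0.43 ± 0.14 SE, adjusted p = 0.052). The rise with stage was 621-fold in R42A and 113-fold in MD cells, and the difference was called (log2 -2.46 ± 0.29 SE, adjusted p = 0.0020). Unc5b, the member of the family known from vessels, was at 12.7 (A04), 16.1 (A10), 20.9 (A01) and 22.7 CPM (A02) in R42A ESC and at 18.5 (09), 18.9 (30), 41.5 (45) and 33.3 CPM (47) in MD ESC. Within each run the MD clones were above the R42A clones (log2 0.57 ± 0.12 SE, adjusted p = 0.0066; 0.22 at the highest over its alternatives, without the run term or in the first run alone). In NS it was at 17.7 and 16.1 CPM in R42A and 12.8 and 13.6 CPM in MD clones, and the stage difference of -0.73 ± 0.17 SE was called (adjusted p = 0.022; 0.051 with the clone as a block). Its fall with stage in MD cells was lost without clone 09 or without clone 30 (adjusted p of 0.12 at the highest over its alternatives). Unc5d averaged 3.45 ± 0.24 CPM in R42A NS and 8.43 ± 0.0060 CPM in MD NS (SD, n = 2 clones; log2 1.28 ± 0.35 SE, adjusted p = 0.028, and 0.23 at the highest over its alternatives, when clone 09 or 30 was left out). Unc5a rose 5.75-fold in R42A and 15.8-fold in MD cells, to 3.34 and 4.97 CPM, and was called between genotypes at neither stage.

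Seen by stage change, the genotypes differed in both directions. Called above the equal change were Robo3 (3.28), Epha6 (2.87), Epha4 (1.63), Ephb2 (1.29), Robo1 (1.15), Efna1 (1.05) and Epha10 (1.03), each a log2 difference of the MD from the R42A stage change. Below it were Epha1 (-2.67), Unc5c (-2.46), Efna5 (-2.33), Epha3 (-2.10), Efnb2 (-1.56), Ntn3 (-1.06), Robo2 (-1.02), Unc5b (-0.73), Ephb4 (-0.71) and Efna2 (-0.62). For Epha3, Unc5c and Robo2 the R42A ESC level was at most 0.122 CPM in every clone, and their MD values lay above the R42A values at both stages. With the clone as a block, Epha6 (adjusted p = 0.057), Efna1, Epha10 and Unc5b were no longer called. Without clone 09 the difference was called for 2 members (Robo3 and Epha4) and without clone 30 for 3 (Robo3, Epha4 and Efna5), against 0.314% and 0.46% of all genes. Without A04 or A10 it was called for 22 and 23 members (all genes: 35.7% and 31.6%); Epha6 was lost without A04 (adjusted p = 0.070) and Epha3 without A10 (adjusted p = 0.087).

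**Figure D4:**
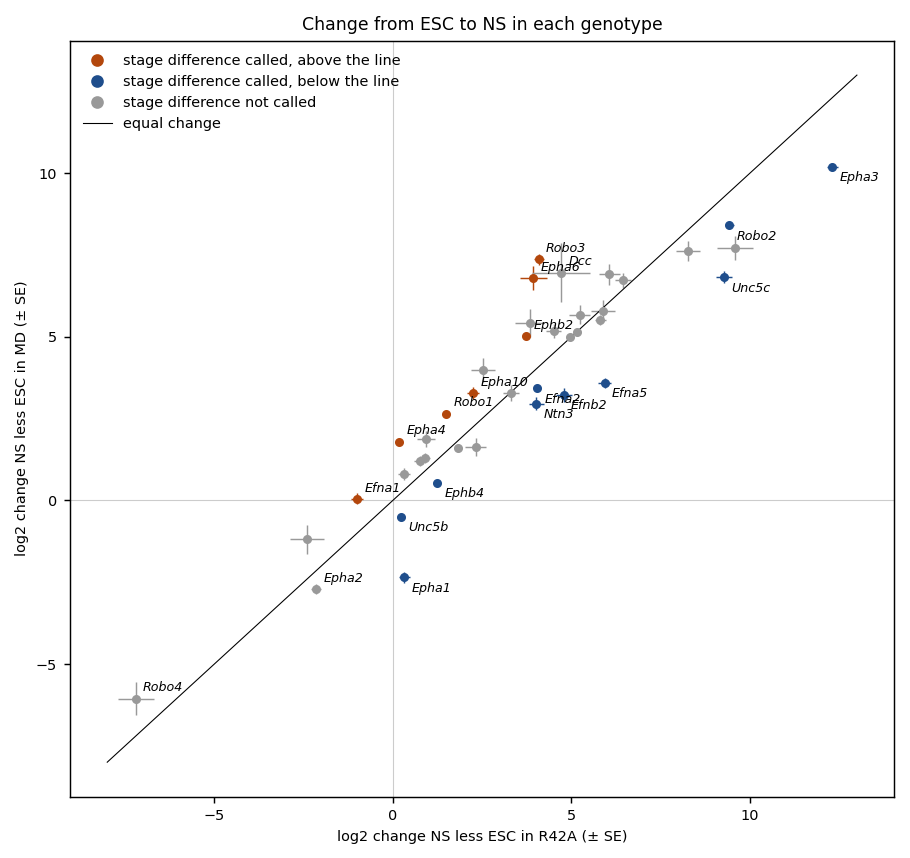
Log2 change from ESC to NS in MD cells (vertical) against R42A cells (horizontal) for the 40 guidance genes; points are estimates from the 4 clones present at both stages, bars are standard errors, and the line marks equal change. Robo3, Epha4 and Ephb2 lie above the line, Epha1, Efna5, Unc5c and Epha3 below it, and Robo4 and Epha2 in the lower left.

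The standard errors come from the F statistic of the fit. For members with few ESC counts they are narrower than counting error alone, as the counting intervals of Epha3 and Ntng1 show.

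Per kb of exon, the order of the members was rebuilt with stage. In R42A ESC the highest were Epha2 (29.1 CPM per kb), Ephb4 (12.2), Epha4 (10.0) and Ntn1 (7.55), and in MD ESC Epha2 (17.97), Ephb4 (11.02), Ntn1 (5.69) and Epha4 (5.57). In R42A NS the highest were Efnb3 (38.5 CPM per kb), Efnb1 (28.3), Efna2 (27.2) and Efnb2 (26.3). In MD NS they were Efnb3 (52.4), Efnb1 (27.4), Efnb2 (27.1) and Epha4 (20.5), with Epha3 (19.9) and Dcc (19.5) next. Neighbours in this order that differed by less than the larger SD of their clones were Ephb4 and Epha4, and Epha4 and Ntn1, in R42A ESC, and Ntn1 and Epha4 in MD ESC. In R42A NS they were Efnb1 and Efna2, and Efna2 and Efnb2. In MD NS they were Efnb1 and Efnb2, Epha4 and Epha3, and Epha3 and Dcc.

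Genes that work with these families were tested too; of all genes, 17.1% were higher and 19.4% lower in MD ESC, and 17.4% higher and 16.3% lower in MD NS. Of 17 Eph and ephrin partners, 3 were higher and 3 lower in MD ESC and 4 higher and 3 lower in MD NS. Of 17 Slit and Robo partners, 4 were higher and 2 lower in MD ESC and 3 higher and 6 lower in MD NS. Of 24 netrin partners, 4 of the 22 tested were higher and 8 lower in MD ESC, and 11 were higher and 4 lower in MD NS. The medians of the lists between the NS genotypes were -0.14, -0.02 and 0.14 on the log2 scale, against -0.0020 over all genes. The counts of the Eph and ephrin partners lay near the shares of all genes. Among all partners, the largest rises in MD NS were those of Lrrc4c (log2 2.20 ± 0.23 SE), the Ntng1 partner, whose mean was 2.63 CPM in R42A and 12.2 CPM in MD, of Dscam (1.81 ± 0.14), reported as another netrin receptor, at 3.99 and 14.1 CPM, and of Trim67 (1.80 ± 0.31), a Dcc-binding ubiquitin ligase. The largest falls there were those of Prrg4 (-1.99 ± 0.14), a Robo-trafficking protein, at 8.47 and 2.15 CPM, Cnksr1 (-1.48 ± 0.25), a scaffold bound by ephrin-B, and Ablim1 (-1.07 ± 0.21), an actin-binding protein.

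In ESC the largest partner differences were the rises of Trim67 (log2 1.23 ± 0.29 SE), Grip1 (0.90 ± 0.27), which binds ephrin-B and Eph tails, and Sdc3 (0.90 ± 0.25), a heparan sulfate carrier, and the falls of Ablim1 (-1.15 ± 0.27), Rgs3 (-0.95 ± 0.23) and Dscaml1 (-0.91 ± 0.20). From ESC to NS, 15 of the Eph and ephrin partners rose and 2 fell in both genotypes, and 22 of the netrin partners rose and 2 fell in both. Of the Slit and Robo partners 12 rose and 3 fell in R42A cells and 11 rose and 3 fell in MD cells. Over all genes 37.9% rose and 40.4% fell in R42A and 40.3% rose and 41% fell in MD cells. Trim9, Lrrc4c and Rgma rose most in both genotypes (R42A log2 9.36, 8.97 and 6.82; MD 9.69, 9.82 and 7.43). The falls were led by Arhgef15 (-4.63), Mcam (-2.17) and Enah (-1.15) in R42A cells and by Arhgef15 (-3.94), Prrg4 (-3.40) and Cnksr1 (-2.68) in MD cells. The genotype effect differed most between stages for Dscam (2.33 ± 0.23 SE), Rgs3 (1.304 ± 0.38) and Kalrn (1.295 ± 0.16) above 0 and for Prrg4 (-2.41 ± 0.19), Cnksr1 (-2.04 ± 0.33) and Flrt3 (-0.41 ± 0.09) below 0.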

How the data were processed

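Per-gene expected counts of 32 RNA-seq libraries were analysed as deposited. The authors estimated these expected counts, with RSEM 1.3.0, STAR 2.7.1a, Trim Galore 0.60, DESeq2 and the build mm10 listed, without roles, per the submitters' processing notes. The strand setting is not given in the sources used here. In each library 1.46% to 1.70% of the values were not whole (tolerance 1e-06). Expected counts were rounded and summed per clone.

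Tests used edgeR 4.0.16 (R 4.3.3): filterByExpr (minimum count 10), TMM scaling, quasi-likelihood F-test, Benjamini-Hochberg adjustment, calls at 0.05. The ESC fit held 8 clone sums with the inferred library run as a covariate. The other 4 comparisons came from 1 fit of 8 clone sums (ESC and NS of A04, A10, 09 and 30). Standard errors are the log2 change divided by the square root of F. With 2 clones a group in NS, p-values lean on the spread shared across groups and genes. They measure the spread between clones. The code was tested on simulated data.

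Members and gene lists were chosen with earlier results of these data known. Every member is named with a level. Values in every clone or library are given for the 4 called members with the largest rise and the 4 with the largest fall in each comparison, among those at a mean of 1 CPM or more in a group compared. Of the partner lists the 3 called genes with the largest rise and the 3 with the largest fall are named. ESC and NS sums pair by clone label, with correlations of their deviations of -0.049 and -0.044. Genes were placed with GENCODE M21 (55180 of 55573 IDs and 40 of 40 members matched).

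Alternatives were DESeq2 1.42.0, limma 3.58.1 (voom), RLE and upper-quartile scaling, each chromosome scaled separately, other count filters, single libraries, blocks, single library runs, NS clones alone and leaving out each clone.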

Additional observations from a re-analysis of the deposited data

Results flagged for a closer look

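Each member had 4 ESC clones or 4 NS libraries per genotype, 160 such groups in all. In 5 of these groups (3.1%) 1 value lay far from the others. The rule would flag 8 (5%) by chance if the values of a group were independent. Libraries of a clone and clones of a run may not be, so the numbers cannot be compared. In ESC, Slit3 was at 23.5 CPM in MD clone 45 against 3.91 to 7.10 CPM in the other MD clones. The other 4 were in MD NS libraries: Efna1 at 1.89 CPM in library 2 of clone 09 (others 1.37 to 1.42 CPM), Efna5 at 58.2 CPM in library 1 of clone 30 (others 53.2 to 54.0 CPM), Efnb2 at 205 CPM in library 1 of clone 30 (others 188 to 190 CPM) and Slit1 at 41.3 CPM in library 1 of clone 09 (others 43.9 to 44.1 CPM).

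The genotype effect (MD less R42A, log2) differed between NS and ESC for 17 members by the test of the difference itself. The difference was below 0 for Epha1 (-2.67), Unc5c (-2.46), Efna5 (-2.33), Epha3 (-2.10), Efnb2 (-1.56), Ntn3 (-1.06), Robo2 (-1.02), Unc5b (-0.73), Ephb4 (-0.71) and Efna2 (-0.62). It was above 0 for Epha10 (1.03), Efna1 (1.05), Robo1 (1.15), Ephb2 (1.29), Epha4 (1.63), Epha6 (2.87) and Robo3 (3.28). With the clone as a block, Efna1, Epha10, Epha6 and Unc5b were no longer called.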

How the results depend on the processing

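The number of members called in ESC (18) moved to 10 without a library run term and to 7 in the first run alone, where 2 clones a genotype remain; in NS (21) it moved to 33 in NS clones alone. Leaving out 1 clone gave 15 to 22 members in ESC, 7 to 27 in NS, and 2 to 23 for the difference between stages (17). Over all genes the ESC calls (7862) became 3084 without a run term, 1769 in the first run and 4878 in the second. The NS calls (8030) became 13643 in NS clones alone, 1600 without clone 09 and 1538 without clone 30, and the stage difference (5472) became 8759 without A04, 77 without 09 and 114 without 30. The cause was not tested. Calls that reversed were Efnb3 in NS (-0.0096 with each chromosome scaled separately) and Epha4 between stages in R42A (-0.0234 with upper-quartile scaling). That scaling moved the median of all genes by -0.20 (R42A) and -0.23 (MD) between stages.

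With the clone as a replicate block, 36 members were called between stages in R42A, 38 in MD, and 13 for the stage difference. The labels tie libraries with the same number to no shared culture or day. Their deviations correlated above 0.1 in 9 of 18 pairs of the first run, 15 of 18 of the second and 4 of 12 of the third, against 10 of 36, 3 of 36 and 0 of 12 pairs with different numbers. In the third run each clone had 2 libraries, whose deviations from the clone's mean are equal and opposite. The correlations of different numbers there mirror those of the same number, so the 0 of 12 is no separate comparison. Single libraries with the number as a replicate block gave 19 members in ESC, 25 in NS and 22 for the stage difference. This block was not run between stages, where stage and number cannot be separated in 1 pairing. Members with few ESC counts (Epha5, Epha6 and Ntng1) are limited by depth.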
